A study of Mus musculus with 2 samples.

Results

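Chemokine receptors that myeloid cells, natural killer (NK) cells and other lymphocytes carry were followed as a set of 9 genes, namely Ccr1, Ccr2, Ccrl2, Cxcr3, Cxcr4, Cxcr5, Cxcr6, Cx3cr1 and Xcr1. The genes were taken by symbol, and all 9 were found among the 30538 genes of the count table. The table holds 2 RNA-seq libraries of total RNA from mouse spleen, 1 from Ch25h-/- mice and 1 from C57BL/6 mice. Mice of both genotypes had been given 100000 Listeria monocytogenes intravenously, and about 100000 cells that were CD11b-positive, Ly6G-negative and Ly6C-low were sorted on day 3 of infection. According to the labels the cells are resident macrophages of the spleen. The labels give neither the age of the mice, nor the number pooled into a library, nor the cells in which the Ch25h-/- allele is lost, and no uninfected group was analysed here. Ch25h encodes the enzyme that turns cholesterol into 25-hydroxycholesterol.

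Chemokine receptors are membrane proteins with 7 helices that couple to inhibitory G proteins and steer cells along gradients of small secreted ligands. Inflammatory receptors such as Ccr2 and Ccr1 bring monocytes and other leukocytes into infected tissue, and mouse monocytes of the Ly6C-high kind need Ccr2 to leave the bone marrow in listeriosis. Homeostatic receptors such as Cxcr4 and Cxcr5 place cells within marrow and lymphoid organs, and atypical receptors such as Ccrl2 bind ligand without the usual signal.

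With 1 library per genotype there was no replicate check, so no p-value was computed. Each value below describes these 2 libraries, which held 15986392 counts for Ch25h-/- and 16957371 counts for C57BL/6. Levels are given as raw counts or as CPM (counts scaled by TMM to 1000000 per library), and log2 ratios are Ch25h-/- over C57BL/6 with an exact 95% interval that covers counting error only. A gene was measured when its mean was at least 1 CPM, and it was called higher or lower when the ratio was at least 2-fold and the interval lay on 1 side of 0. Ch25h itself had 0 counts in the Ch25h-/- library and 3 counts in the C57BL/6 library, at or under the floor of 3 counts, so it does not check the genotype labels at this depth. Markers of tissue macrophages, which the labels name, and of NK cells, which they do not, were both present. The 12 markers of red pulp and marginal zone macrophages summed to 243 CPM in the Ch25h-/- library and 400 CPM in the C57BL/6 library. The 13 NK cell markers summed to 21174 CPM in the Ch25h-/- library and 13102 CPM in the C57BL/6 library.

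Ccr2 and Cxcr6 were higher and Ccrl2 was lower in the Ch25h-/- library, and the other measured receptors differed by less than 2-fold. Of the 9 receptors, 8 were measured, and 2 were called higher and 1 lower. Among all 11972 measured genes, 2.07% were called higher and 5.77% lower. At those shares fewer than 1 of 8 genes would be called in either direction, but the receptors were chosen with earlier results of these data known, so the excess is a description only. The median log2 ratio of the 8 receptors was 0.10, beside 0.01 for all measured genes, and their ratios ran from -1.22 to 1.76. Intervals lay on 1 side of 0 but under 2-fold for 3 receptors, and included 0 for 2 receptors. In bulk libraries of this kind, fewer cells of a type and less RNA per cell cannot be told apart.

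**Figure D1:**
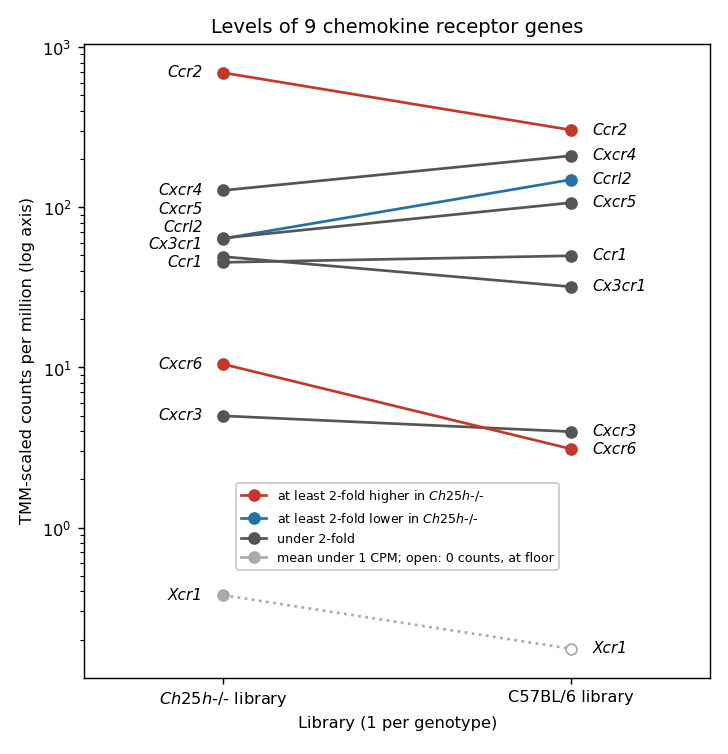
TMM-scaled CPM (log axis) of the 9 receptor genes in the Ch25h-/- library (left) and the C57BL/6 library (right), with 1 point per library and lines joining the same gene. Ccr2 had 691 CPM in Ch25h-/- and 304 CPM in C57BL/6, and the open point places Xcr1, with 0 counts, at the floor of 0.175 CPM.

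Most of the genes lie on 1 chromosome. By the GENCODE M21 annotation of GRCm38, 7 of the 9 are on chromosome 9, and 4 of those (Cxcr6, Xcr1, Ccr1 and Ccr2) fall in the stretch from 500 kb before the start of Ccr2 to its end. Cxcr3 lies on the X chromosome and Cxcr4 on chromosome 1. All 9 are protein-coding, and the longest transcript has 2 exons in 7 of them.

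Counts per kilobase of exon, which allow levels of different genes to be compared, put the receptors in a different order in each library. In the Ch25h-/- library Ccr2 led with 102 CPM per kb, ahead of Cxcr4 at 70.5 CPM per kb. Ccrl2 (24.5), Cxcr5 (19.3), Ccr1 (16.0), Cx3cr1 (10.9), Cxcr6 (5.43) and Cxcr3 (2.88 CPM per kb) followed, and Xcr1 was last with 0.085 CPM per kb. No neighbours in that order had overlapping counting intervals. In the C57BL/6 library Cxcr4 led with 116 CPM per kb, then Ccrl2 with 57.3 and Ccr2 with 44.9 CPM per kb. Cxcr5 (32.1), Ccr1 (17.6), Cx3cr1 (7.08), Cxcr3 (2.30) and Cxcr6 (1.60 CPM per kb) came after them, and Xcr1 had 0 counts. There, Cxcr3 and Cxcr6 were the only neighbours whose intervals overlapped. Ccr2 therefore ranked 1 in the Ch25h-/- library and 3 in the C57BL/6 library. Its level per kb exceeded that of 96.9% of measured genes in the Ch25h-/- library and of 90.9% in the C57BL/6 library.

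The 9 receptors together took 16743 counts in the Ch25h-/- library, 0.105% of all counts (exact binomial interval 0.103 to 0.106%), and 14676 counts in the C57BL/6 library, 0.0865% (0.0852 to 0.0880%). Ccr2 made up 65.4% of those counts in the Ch25h-/- library (64.7 to 66.1%) and 35.4% in the C57BL/6 library (34.6 to 36.2%). Without Ccr2, the other receptors summed to 366 CPM in the Ch25h-/- library and 554 CPM in the C57BL/6 library. The summed level was thus higher with Ccr2 and lower without it.

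Among the inflammatory CC receptors, Ccr2, the receptor for Ccl2 and Ccl7 on Ly6C-high monocytes and on part of the NK cells, stood apart. Ccr2 (ENSMUSG00000049103, GRCm38 chromosome 9, 124101950 to 124113557, plus strand) had 10948 counts in the Ch25h-/- library and 5194 counts in the C57BL/6 library. That is a log2 ratio of 1.19 (interval 1.14 to 1.23), or 2.28-fold, and 1.12% of measured genes had a larger log2 ratio. Its transcripts share 1.91% of their 50-base words with other genes, so a small part of its reads could have been assigned elsewhere or left out. Ccr1, which binds Ccl3, Ccl5, Ccl6, Ccl7 and Ccl9 on monocytes and neutrophils, was nearly level. Ccr1 (ENSMUSG00000025804, chromosome 9, 123962124 to 123968692, minus strand) had 718 counts in the Ch25h-/- library and 852 in the C57BL/6 library, a log2 ratio of -0.14 (-0.28 to 0.01). Within a library, Ccr2 had 6.39 times the level of Ccr1 per kb in the Ch25h-/- library and 2.55 times in the C57BL/6 library. This ratio of ratios, which needs no scaling between libraries, was 1.32 on the log2 scale (exact interval 1.17 to 1.48).

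**Figure D2:**
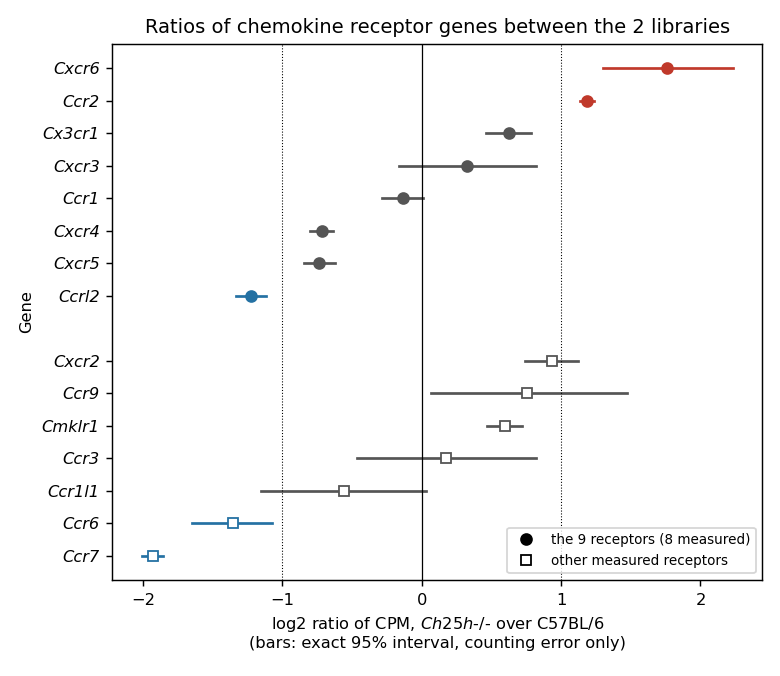
Log2 ratio of CPM, Ch25h-/- over C57BL/6, for the 8 measured receptors of the set (filled points, above) and 7 other measured chemokine receptors (open squares, below), with exact 95% counting intervals as bars and dotted lines at 2-fold. Cxcr6 (1.76) and Ccr2 (1.19) lie right of the 2-fold line, and Ccrl2 (-1.22), Ccr6 (-1.36) and Ccr7 (-1.93) lie left of it.

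Ccr2 also differed from the markers of Ly6C-high monocytes, which are not the only cells that carry it. Its log2 ratio exceeded that of all 10 Ly6C-high monocyte markers, which had a median of 0.15 and ran from -0.59 for the matrix protein gene Fn1 to 1.02 for the proteoglycan gene Vcan. Of these markers 1 was called higher and none lower, and 5 lay above 0. Ccr2 had 267 counts per 1000 counts of these markers in the Ch25h-/- library and 143 in the C57BL/6 library, a log2 difference of 0.90 (exact interval 0.85 to 0.95). Its log2 ratio lay near the top of the range of the 13 NK cell markers, which ran from 0.55 to 1.46. Of these only Ncr1 (1.46) had a larger log2 ratio than Ccr2, and Klre1 (1.17) was next below it. Ccr2 was not set against the NK marker counts, so whether it differed from them was not tested. The measured listed genes with the log2 ratio nearest to that of Ccr2 were Mmp9 (1.18), Xcl1 (1.20) and Ccna2 (1.17), which are a neutrophil protease, an NK cell chemokine and a cyclin. Each likeness is a single ratio of 2 libraries.

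Cx3cr1, the receptor for the membrane-bound ligand Cx3cl1, marks Ly6C-low patrolling monocytes and mature NK cells. It (ENSMUSG00000052336, chromosome 9, 119901616 to 120069879, minus strand) had 779 counts in the Ch25h-/- library and 546 in the C57BL/6 library, a log2 ratio of 0.62 (0.46 to 0.78) that does not reach 2-fold. An antisense gene, Gm33858, overlaps its exons, and the use of strand in counting is not given in the sources used here. The log2 ratio of Cx3cr1 was larger than that of all 10 Ly6C-low monocyte markers, whose median was -0.29 with none called. It was larger than that of 3 of 13 NK cell markers and smaller than that of 10. Set against 1000 NK marker counts, the Cx3cr1 count was 2.32 in the Ch25h-/- library and 2.44 in the C57BL/6 library (log2 difference -0.07, interval -0.23 to 0.09). Set against 1000 Ly6C-low monocyte marker counts it was 15.7 in the Ch25h-/- library and 12.0 in the C57BL/6 library (0.38, interval 0.22 to 0.55). Itgal and Spn held the most counts of those markers, and without them the values were 72.2 in the Ch25h-/- library and 37.7 in the C57BL/6 library (0.94, interval 0.77 to 1.10), so the size of this difference depends on the markers taken. Ccr2 stood at 9.37 times the level of Cx3cr1 per kb in the Ch25h-/- library and 6.34 times in the C57BL/6 library, a log2 difference of 0.56 (exact interval 0.40 to 0.73).

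The CXC receptors of effector lymphocytes, Cxcr6 and Cxcr3, had few counts and parted in ratio. Cxcr6, the receptor for Cxcl16 on activated T cells, NKT cells and innate lymphocytes (ENSMUSG00000048521, chromosome 9, 123806475 to 123811760, plus strand), had 166 counts in the Ch25h-/- library and 53 counts in the C57BL/6 library. Those counts equal 10.5 CPM in Ch25h-/- and 3.10 CPM in C57BL/6. The log2 ratio of 1.76 (1.30 to 2.23), or 3.38-fold, was the largest of the set, and 0.259% of measured genes had a larger log2 ratio. Cxcr6 lay above all 13 NK cell markers, whose largest log2 ratio was 1.46 (Ncr1), and above all 11 T cell markers, whose largest was 0.72 (Bcl11b). The counting interval of Cxcr6 includes the Ncr1 ratio, so the order of these 2 genes is not resolved at this depth. The measured listed gene nearest to Cxcr6 was Ncr1, an activating receptor of NK cells, followed by Xcl1 and Mmp9 at a greater distance.

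Cxcr3 binds the interferon-inducible ligands Cxcl9, Cxcl10 and Cxcl11 and guides effector T and NK cells. It (ENSMUSG00000050232, X chromosome, 101731535 to 101734269, minus strand) had 79 counts in the Ch25h-/- library and 68 in the C57BL/6 library, a log2 ratio of 0.33 (-0.16 to 0.82). The interval includes 0, so no difference was detectable at this depth. All 13 NK cell markers had larger log2 ratios than Cxcr3, but against 1000 NK marker counts its own count was 0.235 in the Ch25h-/- library and 0.303 in the C57BL/6 library, a log2 difference whose interval of -0.85 to 0.12 includes 0. Cxcr6 and Cxcr3 differed from each other, since Cxcr6 stood at 1.88 times the level of Cxcr3 per kb in the Ch25h-/- library and 0.699 times in the C57BL/6 library. The log2 difference was 1.43 (exact interval 0.75 to 2.11).

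The homeostatic receptors Cxcr4 and Cxcr5 were lower by nearly the same ratio, short of 2-fold. Cxcr4, which binds Cxcl12 and retains cells in bone marrow and lymphoid tissue (ENSMUSG00000045382, chromosome 1, 128588199 to 128592293, minus strand), had 2020 counts in the Ch25h-/- library and 3588 in the C57BL/6 library. Its log2 ratio was -0.72 (-0.80 to -0.64), or 1.64-fold lower. Cxcr5 draws B cells and follicular helper T cells to follicles that make Cxcl13 (ENSMUSG00000047880, chromosome 9, 44511787 to 44561877, minus strand). It had 1017 counts in the Ch25h-/- library and 1828 in the C57BL/6 library, a log2 ratio of -0.73 (-0.85 to -0.62). Its exons overlap those of Bcl9l on the opposite strand over 110 bases. Both lay inside the range of the 10 B cell markers, which had a median log2 ratio of -0.61 with 1 called lower and none higher, and a summed level of 924 CPM in the Ch25h-/- library and 1475 CPM in the C57BL/6 library. Relative to the B cell marker counts, Cxcr5 had 69.5 per 1000 in the Ch25h-/- library and 72.4 in the C57BL/6 library (log2 difference -0.06, interval -0.18 to 0.06). Cxcr4 had 138 per 1000 in the Ch25h-/- library and 142 per 1000 in the C57BL/6 library (-0.04, interval -0.13 to 0.04). The part of B cells in either value was not tested. Ccr2 stood at 1.45 times the level of Cxcr4 per kb in the Ch25h-/- library and 0.387 times in the C57BL/6 library.

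Ccrl2, an atypical receptor that presents the attractant chemerin and is induced on activated macrophages, neutrophils and endothelium, was the receptor called lower. It (ENSMUSG00000043953, chromosome 9, 111054486 to 111057519, minus strand) had 1010 counts in the Ch25h-/- library and 2547 in the C57BL/6 library. The log2 ratio was -1.22 (-1.33 to -1.12), or 2.33-fold lower, and 3.99% of measured genes had a smaller log2 ratio. All 12 neutrophil markers had larger log2 ratios than Ccrl2, with 5 of them called higher, none lower and a median of 0.87. Of 12 red pulp and marginal zone macrophage markers, 9 had larger and 3 smaller ratios, with 5 called lower, none higher and a median of -0.77. Of 10 markers of type 2 and mature dendritic cells, 7 had smaller ratios than Ccrl2, with 9 called lower, none higher and a median of -1.71. Within a library, Ccrl2 had 262 counts per 1000 macrophage marker counts in the Ch25h-/- library and 373 in the C57BL/6 library (log2 difference -0.51, interval -0.63 to -0.39). Per 1000 dendritic cell marker counts the values were 104 in the Ch25h-/- library and 77.8 in the C57BL/6 library (0.42, interval 0.31 to 0.53). Without Fscn1 and Cacnb3, the dendritic cell markers with the most counts, they were 194 in the Ch25h-/- library and 191 in the C57BL/6 library (0.02, interval -0.09 to 0.14), so the value depends on which markers Ccrl2 is set against. Nearest to Ccrl2 in log2 ratio among the measured listed genes were Grk3 (-1.17), Spic (-1.17) and Cadm1 (-1.30).

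**Figure D3:**
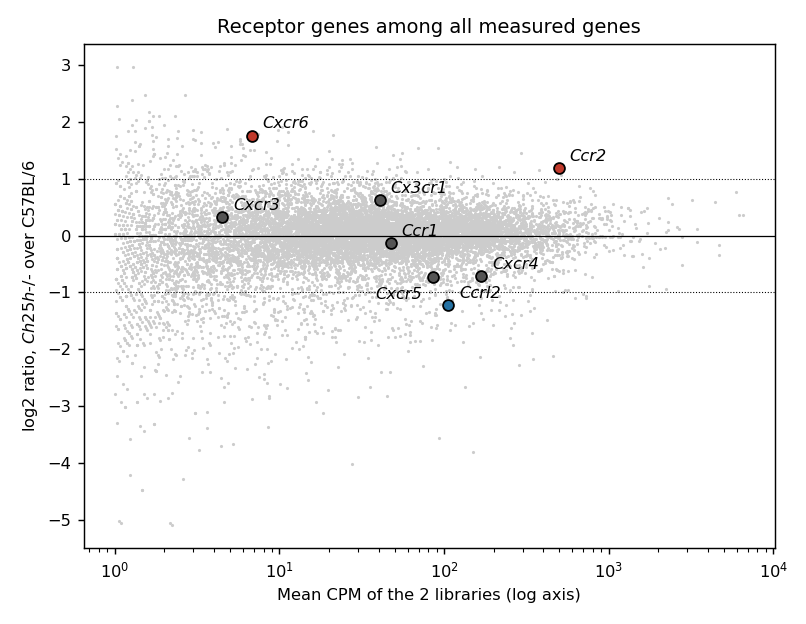
Mean CPM of the 2 libraries (log axis) against the log2 ratio of Ch25h-/- over C57BL/6 for all 11972 measured genes (grey), with the 8 measured receptors drawn large. Ccr2 lies above the 2-fold line where few genes do, Cxcr6 lies among genes of low counts, and Ccrl2 lies below the lower line.

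Xcr1, the receptor for Xcl1 and a marker of type 1 conventional dendritic cells (ENSMUSG00000060509, chromosome 9, 123852315 to 123862029, minus strand), had almost no counts. The Ch25h-/- library held 6 counts (exact Poisson interval 2.20 to 13.1) and the C57BL/6 library 0 counts (upper limit 3.69). The exact interval of the log2 ratio began at 0.35, or 1.27-fold, and had no upper end. The mean lay under 1 CPM, so Xcr1 was not measured and no fold is given for it. Clec9a, another defining marker of these dendritic cells, was also near 0, with 13 counts in the Ch25h-/- library and 5 counts in the C57BL/6 library. Of the 9 markers of that cell type 8 were measured, 2 of them called lower (Batf3 at -2.14 and Cadm1 at -1.30) and none higher. The list did not move in 1 direction. Irf8, its most abundant marker, stood at 0.49 (0.47 to 0.51) and Naaa at 0.62 (0.44 to 0.80), while the other measured markers lay below 0. The ligand gene of Xcr1, Xcl1, made by NK cells and CD8 T cells, had 439 counts in the Ch25h-/- library and 206 in the C57BL/6 library, a log2 ratio of 1.20 (0.96 to 1.45), and was called higher.

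The ligands of the 9 receptors did not move with them as a group. Of 18 listed ligands 13 were measured, 1 called higher (Xcl1) and 4 lower, with a median log2 ratio of -0.20. Ccl2, a ligand of Ccr2, had 44 counts in the Ch25h-/- library and 179 in the C57BL/6 library (log2 ratio -1.91). The second Ccr2 ligand Ccl7 had 1 count in Ch25h-/- and 20 counts in C57BL/6, and Ccl12 had 8 counts in Ch25h-/- and 6 in C57BL/6, both too few to be measured. Cxcl16, the ligand of Cxcr6, had 36.9 CPM in the Ch25h-/- library and 81.3 CPM in the C57BL/6 library (-1.14), opposite to its receptor. Cx3cl1 had 1.01 CPM in Ch25h-/- and 3.10 CPM in C57BL/6 (-1.62), and Ccl6, a ligand of Ccr1, had 28.9 CPM in Ch25h-/- and 63.2 CPM in C57BL/6 (-1.13). Ccl5, the ligand with the largest CPM, at 937 CPM in the Ch25h-/- library and 671 CPM in the C57BL/6 library (0.48), did not reach 2-fold. The related CC ligands Ccl3 (-0.20), Ccl4 (0.27) and Ccl9 (-0.52) and the Cxcr3 ligands Cxcl9 (0.06), Cxcl10 (0.38) and Cxcl11 (0.11) were not called either. Cxcl13 stood at -0.52, and Cxcl12 (2 counts in Ch25h-/- and 0 in C57BL/6) and the chemerin gene Rarres2 (0 counts in both) were not measured.

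Other chemokine receptors were read from a list of 15, of which 7 were measured, with 2 called lower and none higher. Ccr7, the receptor that takes mature dendritic cells and naive T cells to lymphoid T cell zones, had 109 CPM in the Ch25h-/- library and 413 CPM in the C57BL/6 library (log2 ratio -1.93). Ccr6, found on B cells and some dendritic cells, had 8.84 CPM in the Ch25h-/- library and 22.6 CPM in the C57BL/6 library (-1.36). The neutrophil receptor Cxcr2, which is also 1 of the 12 neutrophil markers, stood at 0.93. Cmklr1, the signalling receptor for chemerin, had 81.5 CPM in the Ch25h-/- library and 53.9 CPM in the C57BL/6 library (0.60), in the direction opposite to Ccrl2. Ccr9 (0.76), Ccr3 (0.18) and Ccr1l1 (-0.55) had few counts and were not called. The median log2 ratio of these 7 receptors was 0.18.

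Downstream of the receptors, all 26 listed G protein, kinase, arrestin, RGS and guanine exchange genes were measured, with 1 called lower, none higher and a median log2 ratio of 0.05. The gene called lower was Grk3, a kinase that phosphorylates activated receptors, listed in the table as Adrbk2, with 135 CPM in the Ch25h-/- library and 303 CPM in the C57BL/6 library (-1.17). Short of 2-fold, Rgs2, which speeds the end of G protein signals, had 66.2 CPM in the Ch25h-/- library and 121 CPM in the C57BL/6 library (-0.87, interval -0.98 to -0.77). Its relative Rgs1 had 406 CPM in the Ch25h-/- library and 644 CPM in the C57BL/6 library (-0.67, interval -0.71 to -0.62). Pik3r5, a subunit of the lipid kinase that G proteins activate, had 379 CPM in the Ch25h-/- library and 523 CPM in the C57BL/6 library (-0.46, interval -0.51 to -0.42). The relative of Grk3, Grk2, listed as Adrbk1, had 758 CPM in the Ch25h-/- library and 731 CPM in the C57BL/6 library (0.05). Rac2, with the largest CPM of them, stood at 0.27, and Rgs16, a brake on G protein signals with the largest ratio, at 0.47.

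**Figure D4:**
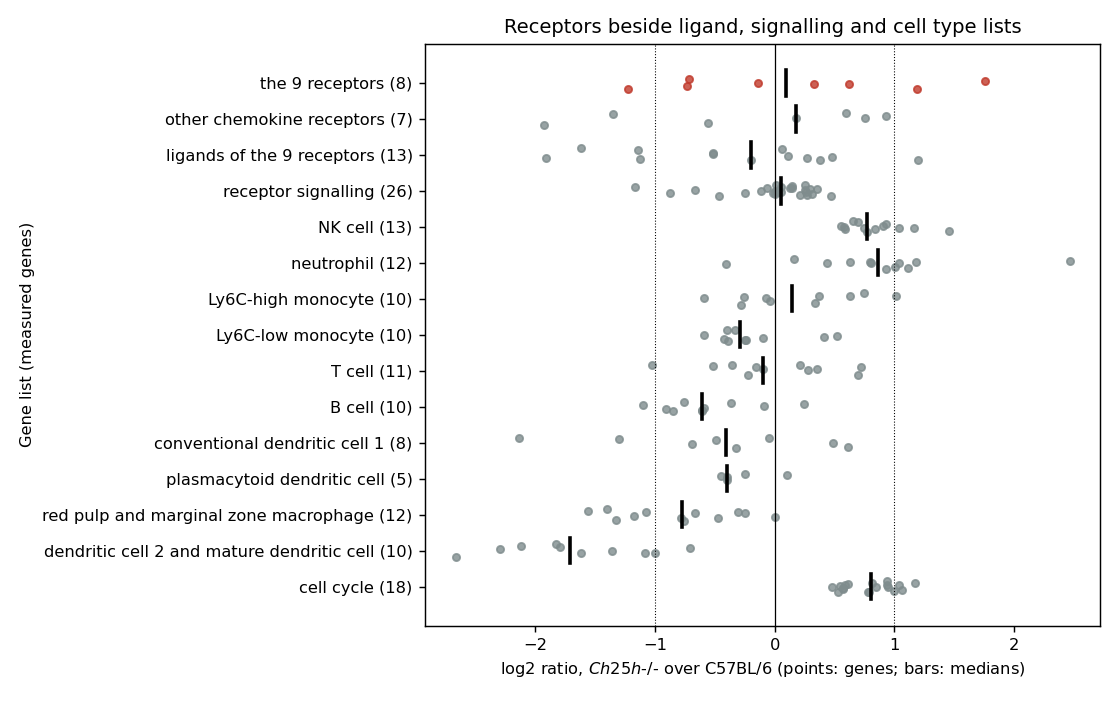
Log2 ratio, Ch25h-/- over C57BL/6, of each measured gene (points) in the receptor set and in 14 further lists, with the median as a bar and the number of measured genes in brackets. The medians of NK cell (0.77), neutrophil (0.87) and cell cycle (0.81) markers lie right of 0, that of dendritic cell 2 and mature dendritic cell markers (-1.71) lies left of the 2-fold line, and the receptors spread over both sides.

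Cell type markers moved with some of these results. NK cell markers were all above 0, with 3 of 13 called higher, none lower and a median log2 ratio of 0.77. None of these 13 markers was at 0 in either library. Cell cycle genes had 4 of 18 called higher, none lower and a median of 0.81. T cell markers summed to 209 CPM in the Ch25h-/- library and 283 CPM in the C57BL/6 library (median -0.10, 1 of 11 called lower and none higher). Without Il7r (the gene called lower) and Icos, the markers with the most counts, they summed to 63.3 CPM in the Ch25h-/- library and 58.3 CPM in the C57BL/6 library. The 5 measured markers of plasmacytoid dendritic cells, none of them called, had a median of -0.40, and Siglech was at 0 in both libraries. Ly6g, the antigen excluded by the sort, had 41 counts in the Ch25h-/- library and 8 in the C57BL/6 library, and the 12 neutrophil markers summed to 2135 CPM in the Ch25h-/- library and 1217 CPM in the C57BL/6 library. What part these cell types have in the receptor values was not tested.

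On chromosome 9, the genes called from 500 kb before Ccr2 to its end were Cxcr6 and Ccr2 itself. The table holds 11 genes in that window, Ccr2 included, of which 8 were measured, 2 called higher and none lower. The window was placed on Ccr2 after it had been called, so that call was set by the choice of window. Among all 11972 measured genes 2.07% were called higher, and whether position matters was not tested. Between Cxcr6 and Ccr2, the end of Fyco1 apart, the table has Xcr1, which was not measured, and Ccr1 (-0.14), Ccr1l1 (-0.55) and Ccr3 (0.18), none of them called. Fyco1, whose gene body surrounds that of Cxcr6 on the opposite strand, stood at -0.05 with 1415 counts in the Ch25h-/- library and 1586 in the C57BL/6 library.

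**Figure D5:**
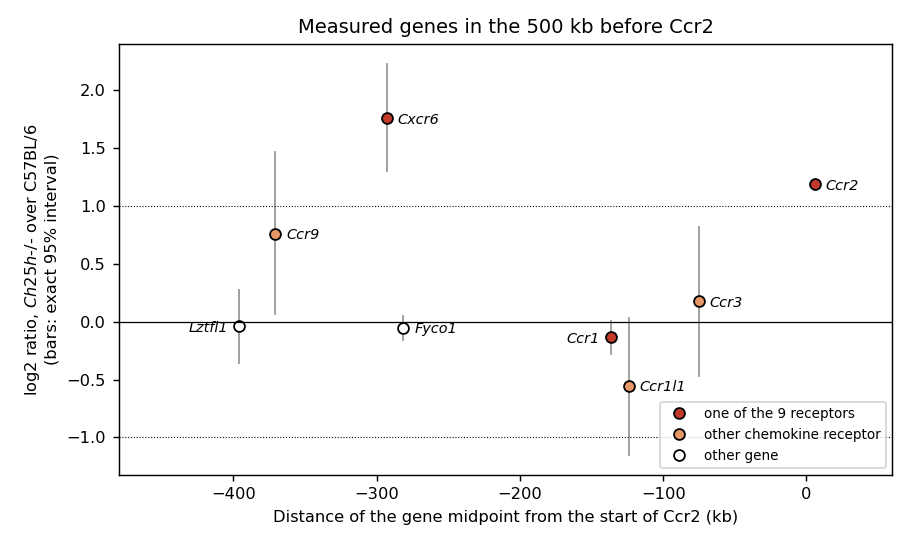
Log2 ratio, Ch25h-/- over C57BL/6, with exact 95% counting intervals, of the 8 measured genes from 500 kb before Ccr2 to its end against the distance of each gene's midpoint from the start of Ccr2 in kb. Cxcr6 (1.76) and Ccr2 (1.19) lie above the 2-fold line, and Ccr1 (-0.14), Ccr1l1 (-0.55) and Ccr3 (0.18) between them lie within 2-fold.

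The promoter windows of the 3 receptors past 2-fold are shown because the genes differ in direction while Ccr2 and Cxcr6 lie in the same cluster. Each runs from 250 bases before to 50 bases after a RefSeq transcription start (GRCm38.p6), on the strand of the gene. Ccr2 is chr9:124101933-124102232 (plus strand), Cxcr6 is chr9:123806227-123806526 (plus strand), and Ccrl2 is chr9:111057469-111057768 (minus strand), the first of 3 listed starts. Capitals mark matches on either strand to 6 motifs. The T-box core GTGTGA is found in 14.4% of 27025 promoter windows, 1 per gene, the ETS core GAGGAA in 28.3%, the RUNX core TGTGGT in 16.9%, the E-box CAGGTG in 20.0%, the GATA core AGATAA in 11.4% and the GT-box CCACCC in 30.9%.

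Ccr2 promoter: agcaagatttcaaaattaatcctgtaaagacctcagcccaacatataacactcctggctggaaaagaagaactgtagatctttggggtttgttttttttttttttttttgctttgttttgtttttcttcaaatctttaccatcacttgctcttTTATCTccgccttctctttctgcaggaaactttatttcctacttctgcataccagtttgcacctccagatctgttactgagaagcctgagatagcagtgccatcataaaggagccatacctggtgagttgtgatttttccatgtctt

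Cxcr6 promoter: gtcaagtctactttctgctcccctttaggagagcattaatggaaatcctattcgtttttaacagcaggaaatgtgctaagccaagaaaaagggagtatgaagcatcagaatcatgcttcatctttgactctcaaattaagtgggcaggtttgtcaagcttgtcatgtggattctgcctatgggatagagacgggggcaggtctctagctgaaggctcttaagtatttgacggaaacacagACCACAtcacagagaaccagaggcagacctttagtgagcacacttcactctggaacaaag

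Ccrl2 promoter: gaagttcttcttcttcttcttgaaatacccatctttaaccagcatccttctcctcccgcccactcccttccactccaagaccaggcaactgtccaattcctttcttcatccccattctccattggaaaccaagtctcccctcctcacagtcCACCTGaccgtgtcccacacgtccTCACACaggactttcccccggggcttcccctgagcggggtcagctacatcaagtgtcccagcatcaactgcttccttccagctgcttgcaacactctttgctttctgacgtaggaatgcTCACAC

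The Ccr2 window holds 1 match, to the GATA core on the minus strand. The Cxcr6 window holds 1 match, to the RUNX core, 10 bases before the start. The Ccrl2 window of the first start holds 3 matches, 2 to the T-box core and 1 to the E-box. The windows of its other starts hold 5 matches each, 2 to the T-box core, 1 to the GATA core and 2 to the GT-box, so the matches depend on the start taken. None of the 6 motifs is held by both windows of the receptors called higher. Windows were found for 8 of the 9 receptors, and a match is a run of letters, not a shown binding site.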

How the data were processed

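Per the labels' protocols, TRIzol was used to isolate total RNA and the KAPA RNA HyperPrep kit to prepare libraries. The authors deposited 1 table of whole read counts per gene, 1 column per genotype, used as given. The tools listed in the submitters' processing notes are GSNAP, Subread 1.5.2 with featureCounts, FastQC 0.11.9 and edgeR 3.26.8, with GRCm38 or mm10 as the build. Read length, strandedness of counting and the handling of multi-mapped reads are not given in the sources used here.

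Counts were scaled with TMM in edgeR 4.0.16 (R 4.3.3). Ratios carry no prior count, a library at 0 is set to a floor of 3 counts, and exact 95% intervals are Clopper-Pearson intervals of 1 library's share of both counts (scipy 1.17.1). Intervals and floors cover counting error only, and the table holds reads, not unique molecules. Ratios of 2 genes within libraries have exact conditional odds ratio intervals. Positions and exon lengths come from GENCODE M21 (GRCm38), and promoters from RefSeq (GRCm38.p6). The calculation was tested on simulated counts. The receptors and all gene lists were chosen with earlier results of these data known. Beside the receptors, every measured listed receptor and ligand was named, and the 3 listed genes nearest to each called receptor. For other lists the plan was to name the most abundant gene and those with the largest and smallest ratio. Only some of these were named, so the genes given for those lists are a selection. Clec9a, Batf3, Cadm1, Grk2, Rgs1, Rgs2, Pik3r5, Ly6g, Siglech, Fyco1 and listed genes under 1 CPM were named after their values were seen. A receptor of the first list is not reported here. The alternatives tried were scaling by upper quartile, by DESeq2 1.42.0 size factors or by total counts, other filters, a prior count of 2, a 1.5-fold threshold and a stricter interval, and, chosen after seeing the data, each marker list without its 2 genes with the most counts.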

Additional observations from a re-analysis of the deposited data

How the results depend on the processing

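No paired analysis was possible because each genotype has 1 library. Scalings moved log2 ratios by at most 0.03, and all 47 recomputed log2 ratios of single receptors stayed within their counting intervals. Those recomputed under another filter could not differ, because a filter does not enter the ratio, so only the scalings and the prior count could move them. The calls of Ccr2 and Cxcr6 as higher and of Ccrl2 as lower held under every alternative tried. A 1.5-fold threshold gave 3 of 8 receptors lower (adding Cxcr4 and Cxcr5) and 3 higher (adding Cx3cr1). Among all 11972 measured genes it gave 880 higher and 1344 lower. No filter beyond 1 count added Xcr1, with its 0 set to the floor, to the receptors called higher, for 3 of 9. It gave 435 of 16504 genes higher and 1031 lower. With a 5 CPM filter 120 of 10077 genes were higher and 347 lower, beside 2 of 7 receptors higher and 1 lower. When the whole interval had to lie beyond 2-fold, 67 of 11972 genes were higher and 318 lower, beside 2 of 8 receptors higher and 1 lower. The median log2 ratio of the receptors, 0.10, became -0.14 with the 5 CPM filter, which drops Cxcr3, so it has no stable direction. By the longest transcript in place of all exons, Ccr2 had 121 CPM per kb in the Ch25h-/- library and not 102, and no measured receptor changed rank in that library. Depth limits Cxcr6, Cxcr3 and Xcr1 most.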

Other observations

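Among receptors with too few counts to be measured, the scavenging receptor Ackr3, which removes Cxcl12, had 4 counts in the Ch25h-/- library and 26 in the C57BL/6 library, with an interval of the log2 ratio from -4.57 to -1.06. Ccr8 had 21 counts in Ch25h-/- and 10 in C57BL/6 (0.03 to 2.43). Ccr4 had 13 counts in Ch25h-/- and 15 in C57BL/6, Ackr2 had 8 in Ch25h-/- and 14 in C57BL/6, and Cxcr1 had 9 in Ch25h-/- and 5 in C57BL/6, each with an interval that includes 0. Ackr1 had 0 counts in Ch25h-/- and 4 in C57BL/6, Ccr10 had 0 in Ch25h-/- and 3 in C57BL/6, and Ackr4 had 0 counts in both libraries. These values cover counting error only and were chosen after they were seen.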
